A study of Homo sapiens and Mus musculus with 10 samples.

Results

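Small nucleolar RNA host genes are genes whose introns contain small nucleolar RNAs (snoRNAs). The 10 hosts described here are GAS5, SNHG1, SNHG6, SNHG7, SNHG8, SNHG11, SNHG12, SNHG15, SNHG17 and SNHG20, each taken as the row with that symbol in 2 tables of read counts from HEK293T cells, an established human embryonic kidney line. They are 10 of 16120 transcript rows in the stress table and 10 of 11976 in the genotype table, and each member is the same transcript in both. The set was put together with its response to glucose deprivation in these libraries already known, so values for glucose deprivation over mock, and differences of that response between sets or genotypes, are a description. Counts of hosts that a fit over all transcripts called are printed beside the share of all transcripts, and are no evidence about the hosts. RefSeq classes all 10 as long non-coding RNAs, and at least 1 small RNA gene lies inside each, which fits the label of host genes.

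A snoRNA of this kind is cut out of an intron after the host RNA is spliced. Box C/D snoRNAs (SNORD) then guide ribose methylation of ribosomal RNA, and box H/ACA snoRNAs (SNORA) guide its conversion of uridine to pseudouridine. The spliced exons left behind often make no protein, and many such host RNAs begin with a terminal oligopyrimidine tract, a run of C and T at the start that ties translation to nutrient supply. Several of them, GAS5 among them, are known targets of nonsense-mediated decay, a pathway that destroys an RNA while it is being translated and so slows when translation is blocked.

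The stress set held 3 libraries of wild-type (WT) HEK293T cells, namely mock, glucose deprivation for 24 h (GD) and 300 nM thapsigargin for 6 h (TG). Thapsigargin empties the calcium store of the endoplasmic reticulum and causes stress there. The genotype set held 4 libraries, mock and 24 h of GD in WT and in UFD1s-deficient HEK293T cells, and UFD1 is a partner of the p97 ATPase that extracts proteins for degradation. Whether the deficient cells were 1 clone, and whether libraries came from separate cultures, is not given in the sources used here.

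Each condition had 1 library in a set, so the counting intervals below cover counting error only. Each stressed library was compared with the mock library of its own set and genotype. Totals ran from 11461365 to 19024327 reads, and levels are given in CPM, reads scaled to library size, here with TMM factors that correct for library composition. The factors were set within each table, whose rows differ, so CPM of the 2 sets are not on 1 scale. UFD1 was counted on different transcripts in the 2 tables. In the genotype set UFD1 had 168 reads in WT mock, 199 in deficient mock, 107 in WT GD and 193 in deficient GD, and whether that row measures the UFD1s form was not tested, so it does not check the genotype labels. A level is a share of the counted RNA, so more RNA of a host per cell and less of the other RNA cannot be told apart.

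The starts of 4 hosts are shown because they span the lengths of the C and T run near the start of transcription. They are RefSeq promoters on GRCh38.p14, from 250 bases before to 50 bases after the start, and 8 of the 10 members had an entry. Capitals mark the longest unbroken run of C and T between 30 bases before and 50 bases after the start. SNHG1 lies at chr11:62855836-62856135 and SNHG7 at chr9:136728135-136728434. SNHG12 lies at chr1:28581824-28582123, these first 3 on the minus strand, and SNHG20 lies at chr17:77088393-77088692 on the plus strand.
SNHG1: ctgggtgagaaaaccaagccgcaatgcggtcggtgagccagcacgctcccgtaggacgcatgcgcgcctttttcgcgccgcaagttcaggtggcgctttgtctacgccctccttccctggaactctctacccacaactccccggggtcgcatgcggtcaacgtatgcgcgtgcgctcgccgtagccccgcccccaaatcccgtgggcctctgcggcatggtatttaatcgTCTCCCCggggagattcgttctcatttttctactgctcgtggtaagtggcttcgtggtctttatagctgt
SNHG7: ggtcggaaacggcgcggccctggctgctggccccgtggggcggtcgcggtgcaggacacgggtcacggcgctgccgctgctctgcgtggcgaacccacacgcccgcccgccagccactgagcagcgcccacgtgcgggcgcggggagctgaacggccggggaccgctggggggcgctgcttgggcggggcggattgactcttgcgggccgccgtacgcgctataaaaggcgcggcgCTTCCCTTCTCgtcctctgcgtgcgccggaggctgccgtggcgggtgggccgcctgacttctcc
SNHG12: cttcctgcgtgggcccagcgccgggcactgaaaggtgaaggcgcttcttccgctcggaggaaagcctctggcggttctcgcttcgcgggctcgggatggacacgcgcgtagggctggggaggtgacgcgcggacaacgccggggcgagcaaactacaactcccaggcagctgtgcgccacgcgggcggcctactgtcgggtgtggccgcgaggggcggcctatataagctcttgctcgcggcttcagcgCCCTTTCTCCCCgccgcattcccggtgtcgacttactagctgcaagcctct
SNHG20: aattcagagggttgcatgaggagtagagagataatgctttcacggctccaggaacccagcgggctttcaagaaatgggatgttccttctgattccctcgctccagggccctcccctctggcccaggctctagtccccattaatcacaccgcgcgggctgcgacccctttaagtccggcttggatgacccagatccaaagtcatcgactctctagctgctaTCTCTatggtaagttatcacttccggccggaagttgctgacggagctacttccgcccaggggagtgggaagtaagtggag

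SNHG12 and SNHG7 had the longest runs of the 8 hosts, with 12 and 11 bases. Runs at least as long were present in 7.21% of all 35116 promoters for SNHG12 and in 10.1% for SNHG7. GAS5 had a run of 8 bases, SNHG1 and SNHG17 had 7, SNHG8 had 6, and SNHG11 and SNHG20 had 5. The median was 7 over the members and 6 over all promoters, so as a set the hosts lay close to other genes in this measure. The searched stretch begins before the start, so a run in it need not be part of the RNA. In SNHG1, SNHG7, SNHG17 and SNHG20 the run ended before the first base of the counted transcript. For GAS5, SNHG11 and SNHG12 the first bases of the counted transcript were not found in the window. Their runs and motifs therefore need not lie at the start of the counted RNA. The measure therefore does not tell whether a host RNA begins with a terminal oligopyrimidine tract. With 8 promoters this is a description only.

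Short motifs were searched on both strands in the same 300-base windows. TATAAA, which positions RNA polymerase II at some promoters when shortly before the start, was anywhere in the window in 3 of 8 members and in 11.5% of all promoters. Only in SNHG7 did it lie on the gene's strand shortly before the start. In SNHG1 and SNHG11 it lay on the other strand near an end of the window, so the count is not one of working elements. CACGTG, an E-box, was in SNHG7 alone and in 7.26% of all promoters. CCAAT was in 1 member and in 34.6% of all promoters. TGATGNAA, the letters of the element bound by the stress factor ATF4, was in 0 of 8 members and 3.62% of all promoters, and TGACGTCA, a cyclic AMP response element, was in 0 of 8 and 1.85%. No motif is contained in another, and a window without a match says only that those letters are not in it.

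In the counted GAS5 transcript, matched to GENCODE 29, the first 60 bases open with 4 bases of C and T, in capitals.
GAS5: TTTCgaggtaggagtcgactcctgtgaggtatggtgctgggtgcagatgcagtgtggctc

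GAS5 and SNHG1 made up most of the signal of the 10 hosts in mock cells. Per kilobase of transcript, GAS5 stood at 142 CPM in WT mock of the stress set and 114 in that of the genotype set. SNHG1 followed with 95.02 and 63.5, and SNHG15 with 25.6 and 38.0. SNHG12, SNHG8, SNHG6, SNHG17, SNHG20 and SNHG11 lay between 5.64 and 21.5 in the 2 WT mock libraries, and their order differed between the sets. SNHG7 was lowest in both, at 0.631 and 1.99 per kilobase. The sum over all 10 hosts, not per length, was 310.8 CPM in the stress mock, 756 after GD and 759 after TG. Genotype-set sums were 289 and 333 in mock and 547 and 537 under GD, WT before deficient.

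**Figure D1:**
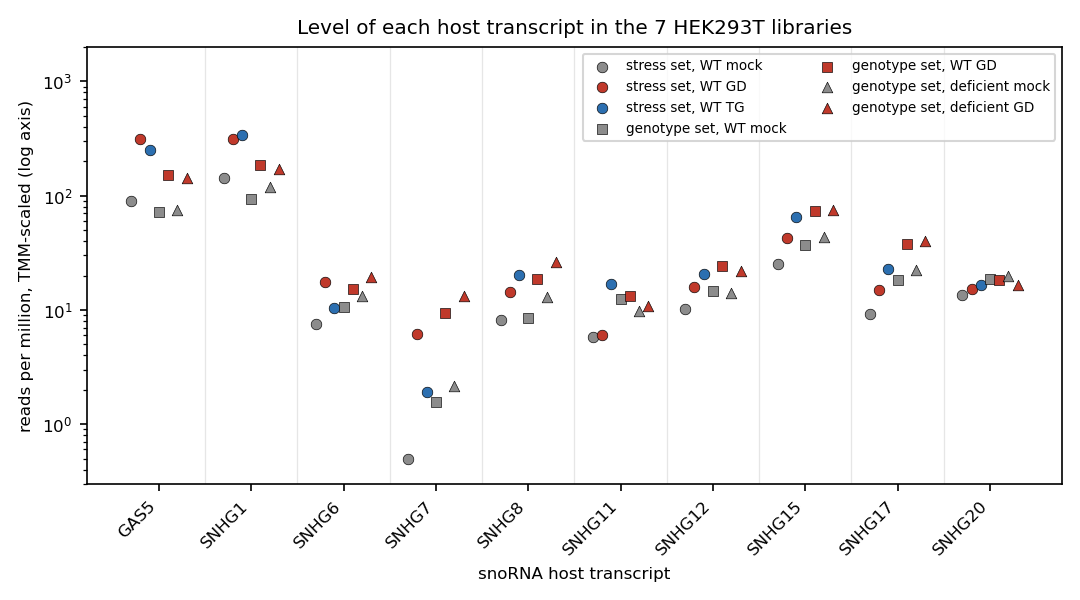
Level of each snoRNA host transcript in the 7 HEK293T libraries, in TMM-scaled CPM on a log axis; circles are the stress set, squares WT and triangles UFD1s-deficient cells of the genotype set. GAS5 and SNHG1 lie above the other hosts in every library, and SNHG7 lies lowest in all 3 mock libraries.

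Under GD, 8 of the 10 hosts were higher than mock and SNHG11 and SNHG20 lay near mock. The edgeR fit over the 3 mock and GD pairs called these 8 among the 9.75% of 10368 transcripts called higher at an adjusted p under 0.05, and 20.9% were called in either direction. The members were chosen on this contrast, so the choice fixed that outcome and nothing is read from the count. The fitted change had a median of 0.85 on the log2 scale over the members and -0.02 over all transcripts. With library totals in place of TMM 30.9% rather than 46.7% of the calls were higher, and 8 hosts were called. In WT libraries alone 4 hosts and 490 transcripts were called, and with no set term 0 and 24, against 2164 transcripts with all libraries and terms. Leaving out 1 deficient library repeats the fit of WT alone, since the genotype term takes up the other. By a rule of size, at least 2-fold on reads with a prior count of 5 and 50 or more in the higher library, 4 hosts were higher in the stress pair (beside 3.73% of transcripts), 4 in WT (2.39%) and 1 in deficient cells (2.14%) of the genotype set. In all 3 GD pairs 9 hosts were above mock, beside 28.8% of transcripts, and the same 9 were above it under TG too, beside 21.1%. All 3 GD libraries lay above all 3 mock libraries for 6 members (GAS5, SNHG1, SNHG6, SNHG7, SNHG8 and SNHG12), beside 12.1% of 8346 transcripts with enough reads. This order sets CPM of the 2 sets side by side though they were scaled apart, so it depends on the scaling.

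The first 3 hosts carry box C/D guests only or almost only. GAS5 (NR_002578.2), named for growth arrest, holds 10 SNORD genes and 1 SNORA gene on chromosome 1. Its level was 89.7 CPM in the stress mock, 310.4 under GD and 248 under TG. Its genotype-set levels were 71.8 (WT) and 74.8 (deficient) in mock, and 151 and 143 under GD. GD levels were above every mock level, and the GD library of the stress set was highest. The GD ratio was 3.46-fold (95% counting interval 3.27 to 3.67) in the stress pair. Within the genotype set it was 2.10-fold (1.94 to 2.28) for WT and 1.92-fold (1.77 to 2.08) for deficient cells. The fitted GD change was 1.27 (SE 0.149) on the log2 scale.

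SNHG1 (NR_003098.1), on chromosome 11, holds 8 SNORD genes and no other guest. It stood at 141 CPM in the stress mock, 312 under GD and 337 under TG. For SNHG1, WT cells of the genotype set had 94.4 in mock against 186 under GD, and deficient cells had 120.2 against 171. Every GD library was above every mock library. The GD ratio was 2.21-fold (2.10 to 2.32) in the stress pair, and within the genotype set 1.97-fold (1.83 to 2.11) for WT and 1.42-fold (1.33 to 1.52) for deficient cells. SNHG6 (NR_002599.1), on chromosome 8 with 1 SNORD guest, was lower in level, with 7.47, 17.7 and 10.45 CPM in stress mock, GD and TG. Mock levels in the genotype set were 10.65 (WT) and 13.1 (deficient), and GD levels 15.4 and 19.3. Its GD ratios were 2.37-fold (1.90 to 2.96), 1.44-fold (1.15 to 1.82) and 1.47-fold (1.20 to 1.80).

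The next 6 hosts carry H/ACA guests, in SNHG12 beside a box C/D guest, and SNHG7 among them had the largest GD ratios of the set. SNHG7 (NR_024543.1), with 2 SNORA guests on chromosome 9, had 9 reads in the stress mock, 75 under GD and 36 under TG. Reads in the genotype set were 20 against 105 for mock against GD in WT, and 29 against 153 in deficient cells. Each GD library was above all mock libraries, on few reads. The GD ratio was 12.3-fold (6.14 to 27.9), 6.02-fold (3.71 to 10.3) and 6.08-fold (4.06 to 9.38), and the fitted change of 2.85 (SE 0.314) on the log2 scale was the largest among the members.

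SNHG8 (NR_003584.3), with 1 SNORA guest on chromosome 4, was 8.19 CPM in the stress mock, 14.4 under GD and 20.2 under TG. Among genotype-set libraries it was 8.54 (WT) and 13.1 (deficient) in mock, and 18.8 and 26.4 under GD. The lowest GD level was above the highest mock level, and the fitted GD change was 0.98 (SE 0.171). SNHG12 (NR_024127.1), on chromosome 1 with 3 SNORA guests and 1 SNORD guest, was 10.1, 15.9 and 20.75 CPM in stress mock, GD and TG. WT cells of the genotype set had 14.65 in mock against 24.3 under GD, and deficient cells had 14.2 against 21.8. Its change was alike across pairs, with a mean of 0.65 ± 0.054 (SD, n = 3 pairs) on the log2 scale.

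SNHG15 (NR_003697.1), with 1 SNORA guest on chromosome 7, was 25.2 CPM in the stress mock, 42.9 under GD and 64.5 under TG. For SNHG15 the genotype-set mocks stood at 37.3 (WT) and 43.5 (deficient) and the GD libraries at 73.75 and 74.8. It was higher under GD in each pair, by a mean of 0.84 ± 0.12 (SD, n = 3 pairs). On these CPM, scaled within each set, the stress GD library did not exceed the deficient mock. With both sets scaled together over shared transcripts, the stress GD library stood at 48.2 and genotype-set WT mock stayed at 37.3. Whether the lowest GD library exceeded the highest mock library therefore depends on the scaling. SNHG17 (NR_027241.1), on chromosome 20 with 4 SNORA guests, was 9.13, 14.9 and 22.7 CPM in stress mock, GD and TG. Its genotype-set mocks stood at 18.4 (WT) and 22.2 (deficient) and the GD libraries at 37.8 and 39.8. Its GD change was 0.85 ± 0.17 (SD, n = 3 pairs), and its stress-set GD level lay below both genotype-set mock levels.

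SNHG11 and SNHG20 were the members nearest to mock under GD. SNHG11 (NR_003239.1), with 2 SNORA guests on chromosome 20, was 5.81 CPM in the stress mock, 6.04 under GD and 16.7 under TG. SNHG11 stood at 12.5 and 13.1 CPM in mock and GD of genotype-set WT cells, and at 9.85 and 10.8 in deficient cells. Its GD ratios of 1.04, 1.05 and 1.10 each had an interval that held 1. SNHG20 (NR_027058.1), on chromosome 17, hosts SCARNA16, a Cajal body RNA that guides modification of spliceosomal RNA. SNHG20 was 13.4, 15.3 and 16.5 CPM in stress mock, GD and TG. Mock and GD of the genotype set gave 18.7 and 18.15 CPM in WT cells, and 19.9 and 16.5 in deficient cells. Its fitted GD change was -0.05 (SE 0.165), and it changed sign between pairs, from 0.18 in the stress set to -0.27 in deficient cells.

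**Figure D2:**
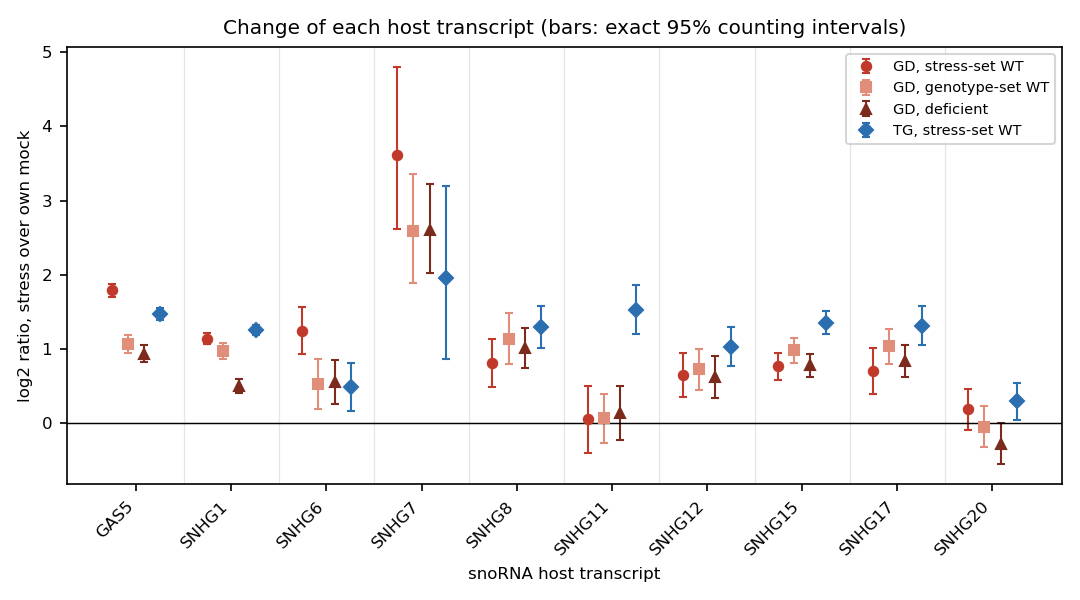
Log2 ratio of each snoRNA host transcript over the mock library of its own set and genotype, for 3 GD pairs and 1 TG pair; bars are exact 95% counting intervals. SNHG7 has the largest GD ratios on few reads, SNHG11 departs from 0 under TG and not under GD, and SNHG20 lies near 0 in all 4 pairs.

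Under TG the hosts were also higher than mock, with a median change of 1.28 on the log2 scale beside 0.01 over all transcripts, and all 10 counting intervals lay above 1. With 1 TG library there is no test. The TG ratios use the same mock library as the stress GD ratios, which were known when the members were chosen. A low value in that mock raises both, so the TG values and counts are a description too. By the same rule of size 7 of the 9 hosts with enough reads were higher, beside 4.73% of 9116 transcripts. These are GAS5, SNHG1, SNHG8, SNHG11, SNHG12, SNHG15 and SNHG17. SNHG6 and SNHG20 stayed under 2-fold, with 1.40-fold (1.12 to 1.76) and 1.23-fold (1.04 to 1.46). SNHG7, with 9 and 36 reads, was under the read minimum and had a ratio of 3.88-fold (1.83 to 9.15).

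The TG ratios of the 7 hosts lay between 2.05-fold (SNHG12, 1.71 to 2.46) and 2.88-fold (SNHG11, 2.30 to 3.63). GAS5 was at 2.77-fold (2.62 to 2.93) and SNHG1 at 2.39-fold (2.28 to 2.50), and SNHG8, SNHG15 and SNHG17 lay between 2.46-fold and 2.56-fold. The GD ratios of the same 7 hosts in the stress set ran from 1.04 to 3.46. With library totals in place of TMM the median of all transcripts moved from 0.01 to -0.10 under TG and from -0.02 to -0.17 in the stress GD pair, and 6 hosts were past 2-fold under TG, SNHG12 being at 0.90 on the log2 scale. The GD and TG ratios of the stress set share 1 mock library, so their values are set side by side and no relation between them is given.

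**Figure D3:**
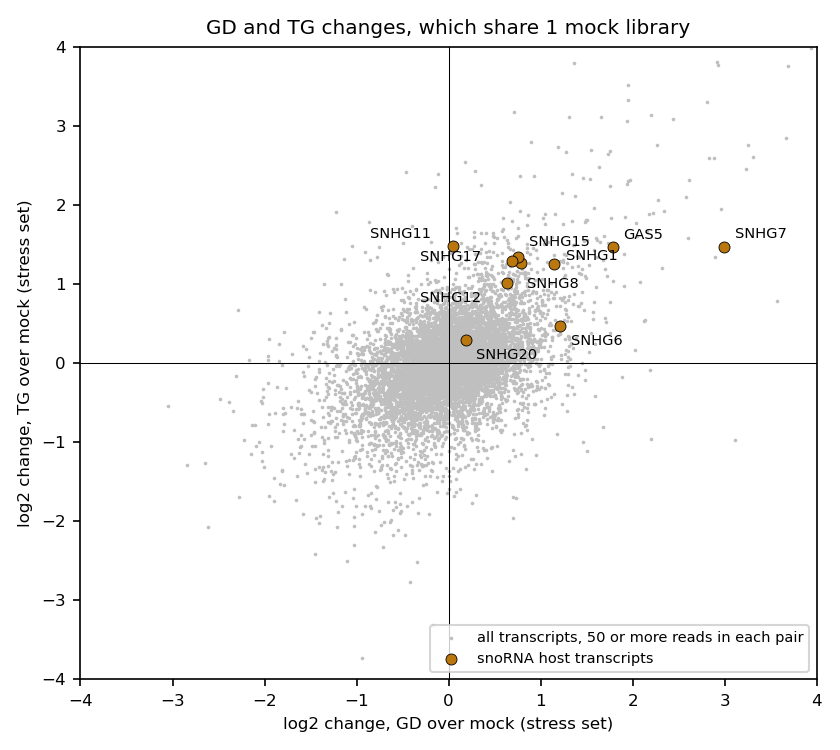
Log2 change under GD (horizontal) and TG (vertical) in the stress set for 8825 transcripts (grey, 7 of them outside the axes) and the 10 snoRNA host transcripts (brown); both changes share 1 mock library, and SNHG7 had under 50 reads in the TG pair. SNHG11 sits near 0 under GD and at 1.48 under TG, while SNHG6 sits at 1.21 and 0.47.

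A direct ratio of the TG to the GD library does not use the mock, but it uses the GD library, whose change was known when the members were chosen. SNHG11 was 2.77-fold higher under TG than under GD (2.14 to 3.62). SNHG7 was lower, at 0.315-fold (0.206 to 0.475). These were the only 2 members past 2-fold, beside 4.58% of transcripts called higher and 3.99% lower. SNHG6 was at 0.590-fold (0.484 to 0.720) and GAS5 at 0.800-fold, while SNHG8, SNHG12, SNHG15 and SNHG17 lay between 1.30-fold and 1.53-fold. TG lasted 6 h and GD 24 h, so agent and time cannot be told apart here.

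The genotype contrast was not used to choose the members. No host passed an adjusted p under 0.05 for UFD1s-deficient against WT cells, beside 1.11% of 10368 transcripts, by edgeR's quasi-likelihood test; 1 host had an unadjusted p under 0.05, and DESeq2 called 0 hosts. The median change over the members was 0.12 on the log2 scale. SNHG8 had the largest change, 0.55 (SE 0.207, adjusted p = 0.261 by edgeR), and was higher in deficient cells both in mock (13.1 against 8.54 CPM) and under GD (26.4 against 18.8). In a fit of the genotype set alone the SNHG8 change of 0.55 passed the threshold (adjusted p = 0.0245 by edgeR). Without the stress mock or stress GD library the change was 0.55 as well. The set term then takes up the 1 stress library left, so these repeat the fit of the genotype set and add nothing to it. The fit of the genotype set alone called 1942 of the 10368 transcripts, against 115 in the fit of both sets, so 1 host of 10 was no larger a share than over all transcripts. For GAS5 the genotype change was -0.0030 (SE 0.181, adjusted p = 0.997 by edgeR).

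The GD response of the hosts was also compared between genotypes. No host and 0 of 10368 transcripts were called (edgeR), with 123 transcripts and 1 host at an unadjusted p under 0.05, and DESeq2 called 0. That host was SNHG1, with a difference of -0.55 (SE 0.242), deficient minus WT, in the log2 GD change. GAS5 had a difference of -0.49 (SE 0.315). The standard errors of the other 8 hosts were between 0.289 and 0.688, so a difference of the size seen for SNHG1 was not resolved. The WT side of each fitted difference takes in both WT pairs, while deficient cells were only in the genotype set. Set and genotype are therefore mixed in it. In the stress pair, genotype-set WT and deficient cells the log2 GD change was 1.79, 1.07 and 0.93 for GAS5. For SNHG1 it was 1.14, 0.97 and 0.50. For SNHG6 and SNHG7 the fitted difference was negative, while within the genotype set the change in deficient cells was above that in WT.

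Between the sets, the GD change of GAS5 differed by -0.77 on the log2 scale (SE 0.1215), genotype set minus stress set. GAS5 was the 1 host among the 4.81% of transcripts that edgeR called in this direction, and 10.4% were called in either. The value is built from the GD changes the members were chosen on, and 1 GD and 1 mock library stand for the stress set, so it is a description. SNHG1 differed by -0.39 (SE 0.140) and was not called. It was called by edgeR with DESeq2's size factors (-0.40) and with library totals (-0.38), and not with 50 reads in every library (-0.39) or by DESeq2 itself (-0.40). SNHG6 differed by -0.68 without being called. MALAT1, a nuclear RNA outside the set, moved likewise, with a GD change of 1.38 in the stress pair and of 0.57 (WT) and 0.53 (deficient) in the genotype set. The ribosomal RNA precursor RNA45SN5 took 10.7% of reads in the stress GD library against 7.73% in its mock, and the part of either in these differences was not tested.

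Mock levels differed between the sets as well. Here both sets were scaled together over the shared transcripts, so these differences are not those of the CPM printed above. On the log2 scale, genotype-set WT mock minus stress-set mock was -0.77 for SNHG1, -0.51 for GAS5 and 1.47 for SNHG7. SNHG11 and SNHG17 were higher in the genotype set by 0.92 and 0.82, and the other 5 hosts differed by 0.13 to 0.38 in size. SNHG7 rests on 9 and 20 reads. For SNHG11, the set difference between mock libraries was larger than its GD change of 0.08 (SE 0.193).

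Other snoRNA hosts were taken from lists. Beside the list counts here and below, the fit called 9.75% of all transcripts higher under GD and 20.9% in either direction. The size rule called 4.73% higher under TG, so a count of 0 in a short list lies near that share. A list of further non-coding hosts had 28 names, some of them second names of the same genes or of a member. Of these, 8 were counted on 1 shared transcript, and under GD 3 rose and 1 fell (median 0.40 on the log2 scale). C6orf48 rose by 1.30 (SE 0.299, adjusted p = 0.0154 by edgeR) and EPB41L4A-AS1 by 1.12 (SE 0.141, adjusted p = 0.00115 by edgeR). The counted row of C6orf48 was one that RefSeq classes as protein-coding. SNHG5 rose by 0.51 (adjusted p = 0.00878 by edgeR), and ZFAS1 was at 0.88 (adjusted p = 0.0623 by edgeR). Under TG 3 of the 8 were higher by the size rule, and the median was 0.82. ZFAS1 was at 2.39, C6orf48 at 2.07 and EPB41L4A-AS1 at 1.12 on the log2 scale under TG.

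Protein-coding hosts outside the ribosome were mixed. Of 27 measured, 8 rose and 2 fell under GD, with a median of 0.02, and 1 was higher under TG. EIF4A2, a translation initiation helicase, rose by 0.87 (SE 0.0879, adjusted p = 0.000427 by edgeR) and TAF1D, a subunit of an RNA polymerase I factor, by 0.65. SNX5, a sorting nexin, rose by 0.97 on 33 to 140 reads a library. For NOP56, a core box C/D protein, the counted row was a non-coding variant of its transcript, which fell by 0.61 (adjusted p = 0.0361 by edgeR). Among 23 ribosomal protein hosts 8 rose and 0 fell under GD (median 0.26), and under TG 0 of 22 were higher (median -0.02). RPL12 rose by 0.66 and RPS2 by 0.41 under GD, while RPL13 was at 0.43 (adjusted p = 0.189 by edgeR). The counted RPL13 transcript had only 108 to 316 reads a library, so it need not stand for all RPL13 mRNA. RPS3 rose by 1.67 under GD and was at -0.96 under TG. Its counted transcript had only 28 to 194 reads a library, against 45197 to 59793 for RPS2, so it need not stand for all RPS3 mRNA.

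Proteins that assemble with snoRNAs were also listed. Of 15 measured, 0 rose and 3 fell under GD (median -0.16), and 0 were higher under TG by the size rule (median 0.11). The non-coding NOP56 variant is among the 3 that fell. SHQ1, an H/ACA assembly factor, fell by 0.39 (adjusted p = 0.0293 by edgeR). GAR1 and NOP10, subunits of the H/ACA particle, were at -0.76 and -0.59 without passing (adjusted p = 0.105 and 0.0580 by edgeR). No transcript of any of the 7 lists passed for genotype.

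Factors of nonsense-mediated decay and its targets were listed too. Of 13 factors, 2 rose and 2 fell under GD (median -0.01). EIF4A3, a core part of the exon junction complex, fell by 0.75 and MAGOHB, another part, by 0.53, SMG9 rose by 0.54, and UPF3B was at -0.54 (adjusted p = 0.435 by edgeR). Of 10 genes with mRNAs known as targets, 3 rose and 1 fell under GD (median 0.25), and under TG 3 of 9 were higher (median 0.84). SRSF3 and SRSF6, among the 10, were counted on non-coding variants. GADD45A rose by 2.36 and GADD45B, also a growth-arrest and damage gene, by 1.06 under GD. SRSF2, a splicing factor, fell by 1.40, and UPP1, uridine phosphorylase, was at 1.04 (adjusted p = 0.118 by edgeR). Another 9 long non-coding RNAs came from a list headed nuclear-retained, which also holds NORAD and OIP5-AS1. Where each of the 9 lies in the cell was not checked, so the heading is only a name. Under GD 2 of them rose, MALAT1 by 0.82 and NEAT1, a scaffold of paraspeckles, by 0.61, and the median was 0.29. JPX was at 0.42 and HCG18 at 0.60 without passing. Under TG 0 of 9 were higher and their median was 0.01, against 1.28 for the hosts.

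**Figure D4:**
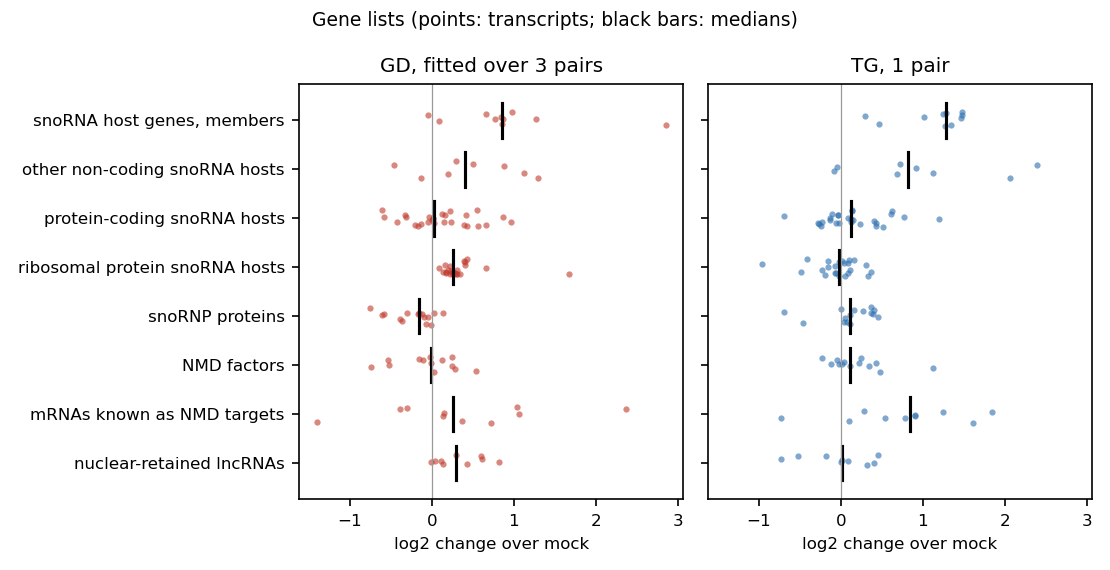
Log2 change over mock for each transcript (points) of 8 gene lists, with list medians as black bars; left, GD fitted over 3 pairs, right, the single TG pair. The host transcripts have medians of 0.85 and 1.28, and the ribosomal protein hosts have 0.26 and -0.02.

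Genes that overlap or adjoin a host on the other strand bear on these counts, since use of strand in the counting is not given in the sources used here. On GENCODE 29, GAS5 overlaps GAS5-AS1 and ZBTB37, SNHG6 overlaps MCMDC2, SNHG7 overlaps FAM69B and SNHG12 overlaps TRNAU1AP, so reads of the shared stretches cannot be told apart. GAS5-AS1 had GD changes of -0.61, -0.20 and -0.04 over the 3 pairs and -0.22 under TG, opposite in sign to GAS5. ZBTB37 had 0.02, 0.44 and 0.0089 under GD, the same sign as GAS5, and -0.28 under TG. TRNAU1AP, counted on a different transcript in each table with 19 to 80 reads, had 0.51, 0.33 and 0.03 under GD and 0.18 under TG, the same sign as SNHG12 in all 4 pairs. FAM69B had 0.09, -0.15 and -0.16 under GD and -0.51 under TG, while SNHG7 was higher in all 4 pairs. MCMDC2 had 0.55, -0.40 and -0.84 under GD and -0.23 under TG. SLC3A2, an amino acid transporter subunit whose start is 188 bases from that of SNHG1 on the other strand, had 262, 247 and 586 reads in stress mock, GD and TG. Its TG change was 1.10 and its fitted GD change 0.13 (adjusted p = 0.595 by edgeR). These neighbours were chosen after their values were seen.

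The small RNAs in the introns were hardly counted in these tables. Of the guests, SNORA24 had a row in the stress table, with 1 read in mock and 0 under GD and TG, and SCARNA16 had a row in both. SCARNA16 had 29, 18 and 12 reads in stress mock, GD and TG. Genotype-set reads were 14 and 25 for mock and GD in WT, and 12 and 34 in deficient cells. Its host SNHG20 had between 187 and 307 reads in the same 7 libraries. The fitted GD change of SCARNA16 was 0.84 (SE 0.486, adjusted p = 0.252 by edgeR).

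Outside the set, the transcripts nearest to the median host profile were found by Euclidean distance over the 4 changes (3 GD pairs and TG), among 7514 transcripts with 50 or more reads in every library. POLR3D, an RNA polymerase III subunit, was nearest, at a distance of 0.196, with GD changes of 0.62, 0.91 and 0.76 and a TG change of 1.21. GARS, a glycyl-tRNA synthetase, followed at 0.263, and NFIL3, a transcription factor, at 0.275. CDC42EP1 and DYRK4 were at 0.288 and 0.327. The distances are a description over 4 changes of 7 libraries that share mock libraries.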

How the data were processed

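Total RNA was depleted of ribosomal RNA and sequenced, with TRIzol extraction and a TruSeq Ribo Profile kit per the labels' protocols. Tools named are cutadapt, FastQC, Bowtie2 and bedtools, with hg19 and mm10, per the submitters' processing notes. How reads were assigned, to which annotation release and whether by strand, is not stated in the sources used here. The authors deposited raw read counts per RefSeq transcript, 1 row per symbol. Beside the genotype counts stand log2 ratios and p-values that the authors deposited for their own genotype comparison, which entered no result. The 3 libraries of mouse N2a cells were not analysed here, since their rows carry accessions only. The 10368 transcripts present in both HEK293T tables were fitted together.

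The members and lists were chosen with earlier results of these data known. Tests were edgeR 4.0.16 quasi-likelihood fits (R 4.3.3, TMM, Benjamini-Hochberg over 10368 transcripts) on the 6 libraries of mock and GD, with terms for set, genotype and treatment, plus 1 interaction at a time. Nothing says that libraries came from separate cultures, so p-values measure only the spread between these samples, which may be technical; 2 residual degrees of freedom remain, and 1 for an interaction. Single pairs were compared as ratios of TMM-scaled reads with exact conditional 95% counting intervals. The size rule was 2-fold or more (prior count 5) with 50 reads in the higher library. All members were named, and from each list the 4 with the largest mean GD change. Scripts were tested on simulated data. Alternatives were other scalings, DESeq2 1.42.0, other read minimums and prior counts, and fits that leave out a library or a set.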

Additional observations from a re-analysis of the deposited data

Results flagged for a closer look

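The GD change of GAS5 was smaller in the genotype set than in the stress set, with a difference of -0.77 on the log2 scale (SE 0.1215). It is listed because the set-by-GD term of GAS5 was called in the edgeR fit over all transcripts, as were 10.4% of transcripts. GAS5 was chosen on GD changes in these libraries, from which this difference is built, so the call is no independent test. The GD change was positive in 3 of 3 pairs, at 1.79 in the stress set, 1.07 in WT and 0.93 in deficient cells of the genotype set. The stress set enters with 1 GD and 1 mock library, and the genotype set with its WT and deficient pairs together.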

How the results depend on the processing

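The labels give no replicate numbers, so no paired analysis was possible because the libraries carry none; the set and genotype terms play that part. For GD, the transcripts called numbered 2164, and 494 to 4039 with 1 library left out, 4040 in the genotype set alone, 490 in WT alone and 24 with no set term. The hosts called were 8, and 4 to 8 with 1 library left out, 4 in WT alone and 0 with no set term. For genotype, the transcripts called were 115, and 40 with 50 reads in every library, 222 by DESeq2, 1942 in the genotype set alone and 5 to 1938 with 1 library left out; the hosts called were 0, and 1 in the genotype set alone (SNHG8) and 0 to 1 with 1 library left out. For GD by set, DESeq2 called 275 transcripts against 1083, and hosts were 2 with DESeq2's size factors and 2 with library totals, against 1.

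By the size rule, a minimum of 200 reads left 303 of 650 transcripts in the stress GD pair, 274 of 676 in genotype-set WT, 241 of 634 in deficient cells, 402 of 733 for TG and 350 of 764 for TG over GD. A prior count of 20 left 449 and 406 in the 2 genotype-set pairs. Hosts called in genotype-set WT went from 4 to 2 with library totals. In deficient cells they went from 1 to 2 with DESeq2's size factors, 2 with a prior count of 1, 2 with shared transcripts alone and 0 with 200 reads, and TG over GD went from 2 to 1 with 200 reads. Signs turned for uncalled changes near 0. For genotype, GAS5 was at 0.0033 with DESeq2's size factors and 0.0038 by DESeq2, and with 1 library left out GAS5 ran from -0.26 to 0.23, SNHG1 from -0.16 to 0.39 and SNHG20 from -0.19 to 0.14. For GD, SNHG20 was at 0.062 in WT alone and ran from -0.16 to 0.062 with 1 library left out. The cause was not tested.

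Leaving out a library gave no test of the interactions, which then had no residual degrees of freedom. In the fits for GD and genotype without 1 stress library, the set term takes up the other, so they rest on the genotype set alone. Without 1 deficient library the GD change rests on the WT libraries alone. Low reads limit SNHG7, with 9 in 1 mock library.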
